A study of Homo sapiens with 16 samples.

Results

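The genes described here encode the proteins that choose and pair splice sites in pre-mRNA and the kinases that act on them: SR proteins, heterogeneous nuclear ribonucleoproteins (hnRNPs), the CLK and SRPK kinases, the SF3A and SF3B subunits of the U2 particle, the U2AF genes, and KIAA0907 (current symbol KHDC4). They were chosen by symbol, as gene families plus KIAA0907 by name, with earlier results of these data known. Of 54 symbols matched, 40 stood in the matrix under the matching name and 14 under an older one, since most SR genes are listed there as SFRS. HNRNPCL1 was listed at 0 in every library, and the other 53 genes had a mean value of at least 10 and were kept, out of 14544 genes that passed the same filter. They are 4 CLK genes, 2 SRPK genes, 12 SR protein genes, 22 hnRNP genes (1 of them, HNRNPA3P1, a pseudogene), 3 U2AF genes, 9 SF3A and SF3B genes, and KIAA0907.

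The libraries come from polyadenylated RNA of 8 established human lines of breast cancer cells, HCC38, HCC70, HCC1143, HCC1395, MDA-MB-157, MDA-MB-231, MDA-MB-436 and MDA-MB-468. Each line was treated for 6 h with topsentinol L trisulfate (TLT), a sulfated sterol from a marine sponge, or with DMSO, its vehicle, which gave 8 TLT and 8 DMSO libraries. The labels give the TLT dose as the EC75, without saying whether it was set for each line. Each line is 1 cell line with 1 library per treatment, and no source used here says how many cultures went into a library. The p-values therefore set the change with TLT against the spread of that change between lines. That spread, and each SE given with a change, is moderated by the spread of other genes, so neither is the gene's own spread alone.

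Values are RSEM gene estimates that the authors scaled so that the upper quartile of a library lies near 1000, and they are relative to the rest of the library. Fewer cells, or less RNA per cell, cannot be told apart from such values. Each change is a log2 difference of value + 1, TLT minus DMSO, from a limma fit over all 14544 genes with the cell line as a block, and a gene is called at a Benjamini-Hochberg adjusted p under 0.05. The estimated depth was 10.6 to 20.1 M reads in TLT libraries and 12.2 to 18.8 M in DMSO libraries. The sum of all values stood highest above its vehicle in MDA-MB-157, at 21087101 with TLT and 16712818 with DMSO, and in HCC70, at 18200807 with TLT and 15027029 with DMSO. All MDA-MB libraries carry lane 1 in their column names and all HCC libraries lane 2, so lane and set of lines cannot be told apart. Keratin and EPCAM values summed to 2599 to 125057 with TLT and 1211 to 82655 with DMSO. The mesenchymal markers VIM, ZEB1, FN1 and TWIST1 summed to 1760 to 171598 with TLT and 922 to 138888 with DMSO. The keratin and EPCAM sum was lowest in MDA-MB-157 and the mesenchymal sum in MDA-MB-468, with either treatment. The 8 markers of blood and endothelial cells summed to 21 to 285 with TLT and 14 to 84.8 with DMSO, and PTPRC, which marks white blood cells, was at most 1.82 in any library. The part of these sums in the results below was not tested.

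In splicing, U2AF recognises the end of the intron, and SF3A and SF3B, as parts of the U2 particle, hold the branch site. SR proteins mostly bind exons and recruit this machinery, while many hnRNPs act against them or package the transcript. SRPK kinases phosphorylate the arginine-serine tails of SR proteins in the cytoplasm and CLK kinases do so in the nucleus, which sets where SR proteins are and whether they are active. Many of these genes also splice their own transcripts into forms that are held in the nucleus or degraded, and gene values such as these cannot tell those forms from the coding ones.

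The promoters of the called members with the 2 largest rises and the 2 largest falls are shown, so that both directions are represented. They are RefSeq sequences on GRCh38.p14, each 300 bases that end shortly after a start of the gene, which need not be the outermost. Each is read 5′ to 3′ along the gene, which lies on the minus strand in all 4 cases. Capitals mark matches, on either strand, to the cAMP response element (TGACGTCA), the E-box (CACGTG), the CCAAT box, the motif of the Sp factors (GGGCGG) or the TATA box (TATAAA).
KHDC4 (KIAA0907), chr1:155934364-155934663: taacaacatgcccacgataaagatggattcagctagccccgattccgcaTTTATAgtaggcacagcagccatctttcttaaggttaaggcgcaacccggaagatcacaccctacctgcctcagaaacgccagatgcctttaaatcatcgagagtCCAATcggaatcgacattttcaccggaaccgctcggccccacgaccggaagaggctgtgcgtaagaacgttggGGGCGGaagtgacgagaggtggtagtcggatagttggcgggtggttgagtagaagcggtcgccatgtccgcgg
HNRNPDL, chr4:82430176-82430475: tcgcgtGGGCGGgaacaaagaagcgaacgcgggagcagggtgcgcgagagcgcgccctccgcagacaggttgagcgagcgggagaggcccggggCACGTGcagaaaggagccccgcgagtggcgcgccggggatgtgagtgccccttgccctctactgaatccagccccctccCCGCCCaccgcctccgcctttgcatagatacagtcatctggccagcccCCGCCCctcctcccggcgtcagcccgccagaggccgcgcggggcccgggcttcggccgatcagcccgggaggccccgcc
CLK2, chr1:155273455-155273754: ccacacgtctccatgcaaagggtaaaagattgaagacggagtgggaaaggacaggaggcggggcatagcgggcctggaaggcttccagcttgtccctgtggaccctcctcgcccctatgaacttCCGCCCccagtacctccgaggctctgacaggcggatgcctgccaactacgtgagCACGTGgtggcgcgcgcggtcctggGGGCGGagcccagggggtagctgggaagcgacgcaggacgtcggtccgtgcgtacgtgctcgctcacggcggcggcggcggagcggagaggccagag
SRPK2, chr7:105389342-105389641: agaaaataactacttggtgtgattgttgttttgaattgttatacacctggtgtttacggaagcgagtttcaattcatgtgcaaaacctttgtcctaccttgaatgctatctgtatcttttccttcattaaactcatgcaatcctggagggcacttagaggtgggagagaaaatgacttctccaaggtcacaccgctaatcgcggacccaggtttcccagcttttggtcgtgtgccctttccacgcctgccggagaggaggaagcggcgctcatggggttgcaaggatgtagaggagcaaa
In these promoters no match to 1 motif overlapped a match to another. The KHDC4 promoter held 1 CCAAT, 1 GGGCGG and 1 TATAAA, the HNRNPDL promoter 1 CACGTG and 3 GGGCGG, the CLK2 promoter 1 CACGTG and 2 GGGCGG, and the SRPK2 promoter none of the 5 motifs. A promoter was found for 49 of the 53 members. GGGCGG was in 34 of these (69.4%) and in 45.0% of all 35116 promoters in the table. CACGTG was in 10 (20.4%) against 7.26% of all, CCAAT in 18 (36.7%) against 34.6%, and TATAAA in 6 (12.2%) against 11.5%. TGACGTCA was in 0 member promoters and in 1.85% of all. All promoters were counted whatever the level of their gene, and no set matched to the members on level was compared. Nothing particular to the members is read from these shares. These are descriptions of letters, not of bound sites.

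With TLT, 17 of the 53 members rose, 3 fell and 33 were not called. Of all genes tested, 25.9% were called, 15% higher and 10.9% lower, against 32.1% of members higher and 5.7% lower. Without KIAA0907, which was added by name, 16 of 52 members rose (30.8%) and 3 fell (5.8%). Most of the members are abundant, and abundant genes were more often higher. Among genes with a mean of 1000 to 10000, 14 of 39 members rose (35.9%) and 1 fell, against 28.3% and 5.25% of all 4111 genes of that level, and the median change was 0.161 in members and 0.135 in all. Among genes with a mean of 10000 and over, 3 of 5 members rose, against 76.2% of all 164 genes. At 100 to 1000, 0 of 8 members rose and 2 fell, against 7.4% of all 6994 genes higher and 16.2% lower. Nothing particular to the members is read from these shares. Changes were small: 50 of the 53 were under 0.5 in size, the median was 0.167 against 0.045 over all genes, and in 46 members the spread of the DMSO level between lines (SD, log2) was larger than the change. Of the 20 called members, 12 moved one way in all 8 lines. In all, 10 members were higher in all 8 lines (9.19% of all genes were) and 3 were lower in all 8 (6.55% of all genes).

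The counts depended on the lines and the model. Without MDA-MB-436, 11 members rose and 1 fell. Without variance trend and robust moderation, 11 rose and 2 fell. With no block for the line, 1 rose and 0 fell, and 7 of all genes were called. That fit ignores the pairing and sets the change against the differences in level between lines.

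**Figure D1:**
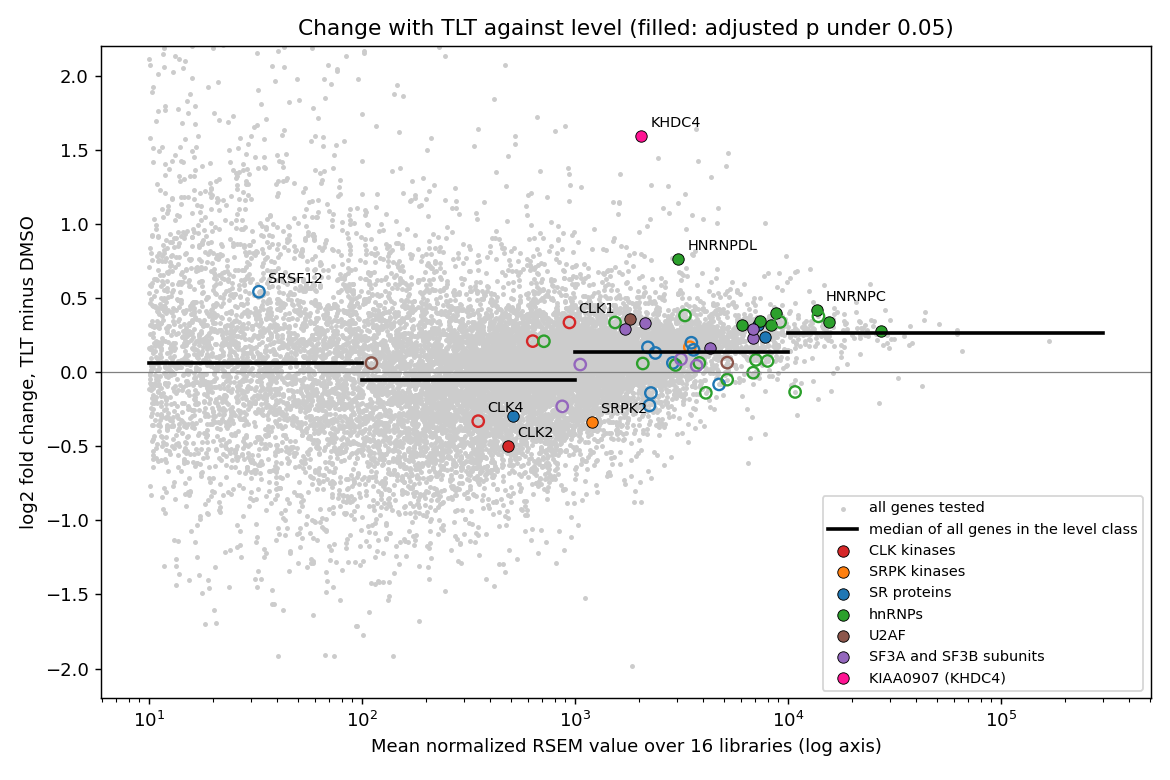
Change with TLT (log2, TLT minus DMSO) against the mean normalized RSEM value over 16 libraries (log axis) for all 14544 genes (grey; 55 lie outside the vertical range) and the 53 members (coloured by group; filled, adjusted p under 0.05). Black bars are the median of all genes in each level class. Most members lie near the bar of their class, and KHDC4, which was chosen by name, stands apart at 1.59.

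KIAA0907 was added by name with earlier results of these data known, so its size and rank are not independent of that choice. It showed the largest change of any member. It encodes KHDC4, an RNA-binding protein with K homology domains that has been linked to splicing, and lies at chr1:155882836-155904204 on the minus strand of GRCh37, with the small RNA genes SNORA42 and SCARNA4 inside its span and no other gene overlapping its exons. With TLT its values were 1985 in HCC38, 3187 in HCC70, 2091 in HCC1143, 2812 in HCC1395, 3575 in MDA-MB-157, 2538 in MDA-MB-231, 4861 in MDA-MB-436 and 3583 in MDA-MB-468. With DMSO they were 824 in HCC38, 645 in HCC70, 828 in HCC1143, 1008 in HCC1395, 1553 in MDA-MB-157, 1001 in MDA-MB-231, 1221 in MDA-MB-436 and 1024 in MDA-MB-468. Every TLT library was above every DMSO library. No other member had groups that did not overlap, and 14 of all genes did (0.0963%). The change was 1.59 ± 0.12 (SE, n = 8 lines), a 3.01-fold higher level (adjusted p = 1.01e-05), and the gene ranked 5 by p of 14544. Changes by line ran from 1.20 in MDA-MB-157 to 2.30 in HCC70. KIAA0907 was also the only member that stayed called in the HCC lines alone (1.60, adjusted p = 0.018) and with no block (adjusted p = 0.00537), and it was called in the MDA-MB lines alone (1.59, adjusted p = 0.00108).

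The kinase genes did not move as a group: of 6, 0 rose, 2 fell and 4 were not called, with a median of -0.08. Of all genes 10.9% fell, and 16.2% of those with a mean of 100 to 1000, where the 4 CLK genes lie. With so few genes, nothing particular to the kinases is read from this count. SRPK2 fell. Its values were 371 (lowest), 873 (median) and 1755 (highest) with TLT, and 503, 1070 and 2232 with DMSO. Those ranges overlap widely, since the lines differed 4.44-fold with DMSO, but the value was lower with TLT in each of 8 lines, from -0.01 in HCC38 to -0.59 in MDA-MB-157. The change was -0.34 ± 0.08 (SE, n = 8, adjusted p = 0.00774). SRPK1, its close relative, had 2256, 3452 and 4982 with TLT, and 1688, 3553 and 4474 with DMSO. It was not called (0.17 ± 0.08, adjusted p = 0.142), with 4 lines above 0 and 4 below. The SRPK1 change exceeded that of SRPK2 in 7 of 8 lines, HCC38 being the exception.

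CLK2 fell by 0.50 on the log2 scale (SE 0.15, n = 8, adjusted p = 0.028). With TLT its values were 202 in HCC70 (lowest), 414 (median) and 628 in HCC38 (highest), and with DMSO 256 in MDA-MB-231, 542 and 856 in MDA-MB-436. The fall was largest in HCC70 (-1.50), while HCC1143 (-0.00) and MDA-MB-231 (0.04) were near 0. Leaving out any of HCC70, MDA-MB-157, MDA-MB-436 or MDA-MB-468 ended the call, at adjusted p = 0.0513, 0.0533, 0.0732 and 0.0608 in that order. So did limma without trend and robust moderation (adjusted p = 0.0573).

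CLK1, the best known of the nuclear SR protein kinases, had 546, 923 and 1751 with TLT (lowest, median, highest), and 498, 810 and 1185 with DMSO. It was not called (0.34 ± 0.14, adjusted p = 0.0943). Its changes by line were 1.07 in MDA-MB-157, 0.90 in MDA-MB-436 and 0.62 in MDA-MB-468, against -0.37 in HCC1143, without which it was called (0.44, adjusted p = 0.0396). CLK3 had 362, 649 and 1048 with TLT and 383, 538 and 828 with DMSO (0.21 ± 0.10, adjusted p = 0.122), above 0 in 7 of 8 lines. HCC70 (-0.26) was the exception, and without it CLK3 was called (0.28, adjusted p = 0.0496). CLK4, a close relative of CLK1, had 39.0, 299 and 510 with TLT and 137, 381 and 630 with DMSO (-0.33 ± 0.19, adjusted p = 0.211), with 3 lines above 0 and 5 below. CLK1 and CLK4 thus had estimates of opposite sign, neither of them called, and the CLK1 change was above the CLK4 change in 8 of 8 lines. The difference between these kinases was not fitted as a test.

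**Figure D2:**
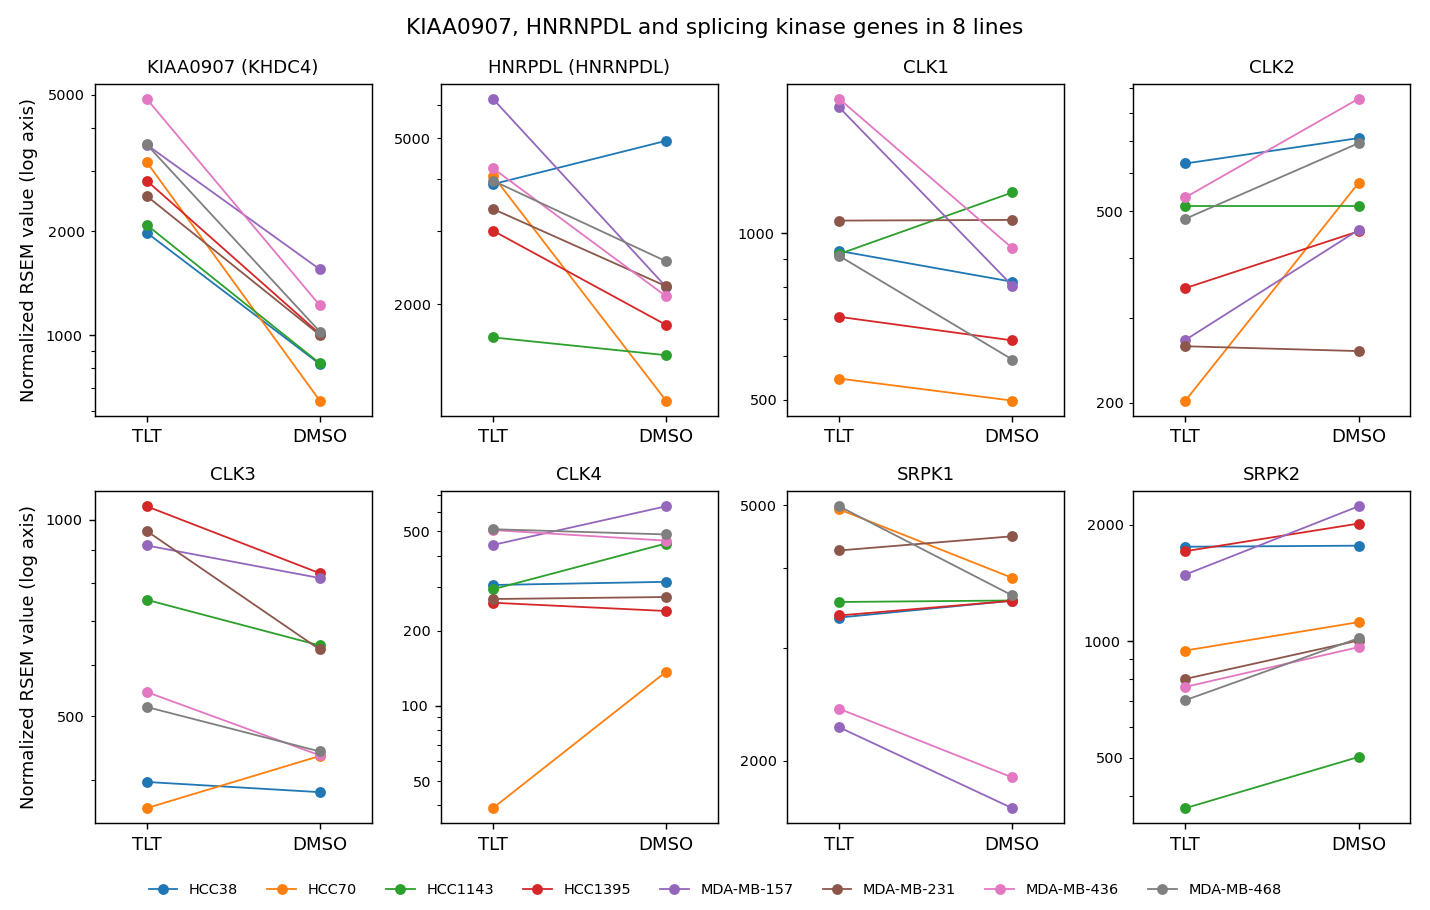
Normalized RSEM values (log axis, 1 range per gene) of KIAA0907, HNRNPDL and the 6 kinase genes, with TLT on the left and DMSO on the right; each line joins both libraries of 1 cell line. All 8 lines slope the same way for KIAA0907 and for SRPK2, while HNRNPDL, CLK1, CLK2, CLK3, CLK4 and SRPK1 have slopes in both directions.

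Among the 12 SR protein genes, 2 rose, 1 fell and 9 were not called, with a median of 0.14. These shares, 16.7% higher and 8.3% lower, are near the 15% and 10.9% of all genes. At a mean of 1000 to 10000, where most SR genes lie, 28.3% of all genes rose, with a median of 0.135. SRSF1 (listed as SFRS1), the prototype of the family, had 5928, 8047 and 12146 with TLT, and 5067, 6568 and 11391 with DMSO. It was higher in all 8 lines, by 0.04 in MDA-MB-231 to 0.51 in MDA-MB-436 (0.24 ± 0.07, SE, adjusted p = 0.0178). SRSF3 (SFRS3), which also has a part in mRNA export, had 5567, 8056 and 9885 with TLT, and 4146, 6144 and 9253 with DMSO. It rose in all 8 lines as well (0.32 ± 0.09, adjusted p = 0.025), by 1.03 in HCC70 and by 0.08 to 0.44 in the other lines. Without MDA-MB-436, SRSF1 (adjusted p = 0.0573) and SRSF3 (adjusted p = 0.0659) were no longer called, nor was SRSF3 without HCC1143 (adjusted p = 0.053). Neither gene was called in limma without trend and robust moderation (adjusted p = 0.0585 for SRSF1 and 0.0701 for SRSF3). At most 40.3% of the annotated exon bases of SRSF1 lie under another gene model, and the reads carry no strand.

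SRSF8 (SFRS2B), an intronless copy related to SRSF2, was the member of this family that fell. Its values were 247, 495 and 576 with TLT, and 322, 570 and 811 with DMSO, lower with TLT in all 8 lines, from -0.01 to -0.49 (-0.30 ± 0.08, adjusted p = 0.0216). Without MDA-MB-436 it was not called (adjusted p = 0.0619). SRSF2 itself (SFRS2), from which reads of SRSF8 may be hard to separate, was not called (-0.08 ± 0.06, adjusted p = 0.36). SRSF12 (SFRS13B), a repressor of splicing in the family, had the largest uncalled estimate (0.54 ± 0.33, adjusted p = 0.238). It stood at 1.49, 20.4 and 111 with TLT, and at 2.02, 9.58 and 238 with DMSO, and its changes by line ran from -1.09 in HCC38 to 2.07 in MDA-MB-157. The other 7 uncalled SR genes lay between -0.23 (SRSF5) and 0.20 (SRSF6), with adjusted p from 0.102 to 0.509.

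The hnRNP genes had the highest median of the larger groups, 0.30, and of 22 members 8 rose, 0 fell and 14 were not called. By level, 5 of 16 with a mean of 1000 to 10000 rose (31.2%), against 28.3% of all genes there, and 3 of 5 with a mean of 10000 and over, against 76.2%, so these shares are near the background. HNRNPC, which binds runs of uridine in introns, had 11651, 15397 and 18482 with TLT, and 9026, 11677 and 16235 with DMSO. It was higher in all 8 lines by 0.19 to 0.65 (0.42 ± 0.07, SE, adjusted p = 0.0012). HNRNPM, a regulator of alternative exons, had 6895, 10003 and 12087 with TLT, and 5784, 7649 and 10154 with DMSO (0.40 ± 0.07, adjusted p = 0.00243), again higher in all 8 lines. HNRNPAB, of the A/B type, had 6427, 9504 and 12318 with TLT, and 4932, 7681 and 9169 with DMSO (0.32 ± 0.06, adjusted p = 0.00351). It was higher in all 8 lines too. HNRNPK, which binds cytidine-rich stretches, had 12386, 17146 and 25911 with TLT, and 10320, 13579 and 18110 with DMSO (0.34 ± 0.07, adjusted p = 0.00552), higher in 7 lines and at -0.00 in HCC38.

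HNRNPDL (HNRPDL), a paralog of the AU-rich element binding protein HNRNPD, had the largest rise of the hnRNP genes. Its values with TLT were 3881 in HCC38, 4070 in HCC70, 1666 in HCC1143, 3004 in HCC1395, 6222 in MDA-MB-157, 3387 in MDA-MB-231, 4241 in MDA-MB-436 and 3958 in MDA-MB-468. With DMSO they were 4932 in HCC38, 1175 in HCC70, 1510 in HCC1143, 1785 in HCC1395, 2203 in MDA-MB-157, 2210 in MDA-MB-231, 2091 in MDA-MB-436 and 2536 in MDA-MB-468. The DMSO library of HCC38 was above every TLT library except that of MDA-MB-157, so the groups overlap, and HCC38 was the only line in which the value was lower with TLT (-0.35). The change was 0.76 ± 0.19 (SE, n = 8, adjusted p = 0.0104), or 1.70-fold, and was largest in HCC70 (1.79) and MDA-MB-157 (1.50). HNRNPD itself had 1990, 3865 and 5088 with TLT, and 1762, 2346 and 5521 with DMSO. It had the largest uncalled estimate of the group (0.38 ± 0.14, adjusted p = 0.0663), with its highest changes in the same lines, HCC70 (1.23) and MDA-MB-157 (1.05), and its lowest in HCC38 (-0.29), without which it was called (0.48, adjusted p = 0.0294). Both genes lie on the minus strand of chromosome 4, HNRNPD at chr4:83273651-83295656 and HNRNPDL at chr4:83343718-83351615 of GRCh37.

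The other called hnRNP genes were HNRNPL (0.32, adjusted p = 0.0167), HNRNPA3 (0.35, adjusted p = 0.0278) and HNRNPA2B1 (0.28, adjusted p = 0.0375). HNRNPA3 was not called without HCC70 (adjusted p = 0.0685), MDA-MB-436 (0.0685) or MDA-MB-468 (0.0663). HNRNPA2B1 was not called without any of HCC38, HCC70, MDA-MB-157, MDA-MB-436 or MDA-MB-468 (adjusted p = 0.0539 to 0.0926). Up to 54.8% of the exon bases of HNRNPA3 are shared with other gene models, chiefly NFE2L2 on the opposite strand. HNRNPA1, the classic antagonist of SR proteins, was not called (0.38 ± 0.14, adjusted p = 0.062), with a change of 1.37 in MDA-MB-157 and of -0.18 to 0.68 in the other lines, and was called without HCC38 (0.46, adjusted p = 0.037). HNRNPA1L2, a near copy of HNRNPA1, also had its largest change in MDA-MB-157 (1.41), as did HNRNPA3 (1.01) and the pseudogene HNRNPA3P1 (1.09). Such copies share reads, and their values are uncertain. HNRNPUL2 was lower in all 8 lines, from -0.01 to -0.21, and was not called (-0.14 ± 0.05, adjusted p = 0.0678), except without MDA-MB-157 (-0.16, adjusted p = 0.0372). The remaining 9 uncalled hnRNP genes had adjusted p of at least 0.144. Without trend and robust moderation, HNRNPL, HNRNPA3 and HNRNPA2B1 were not called.

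**Figure D3:**
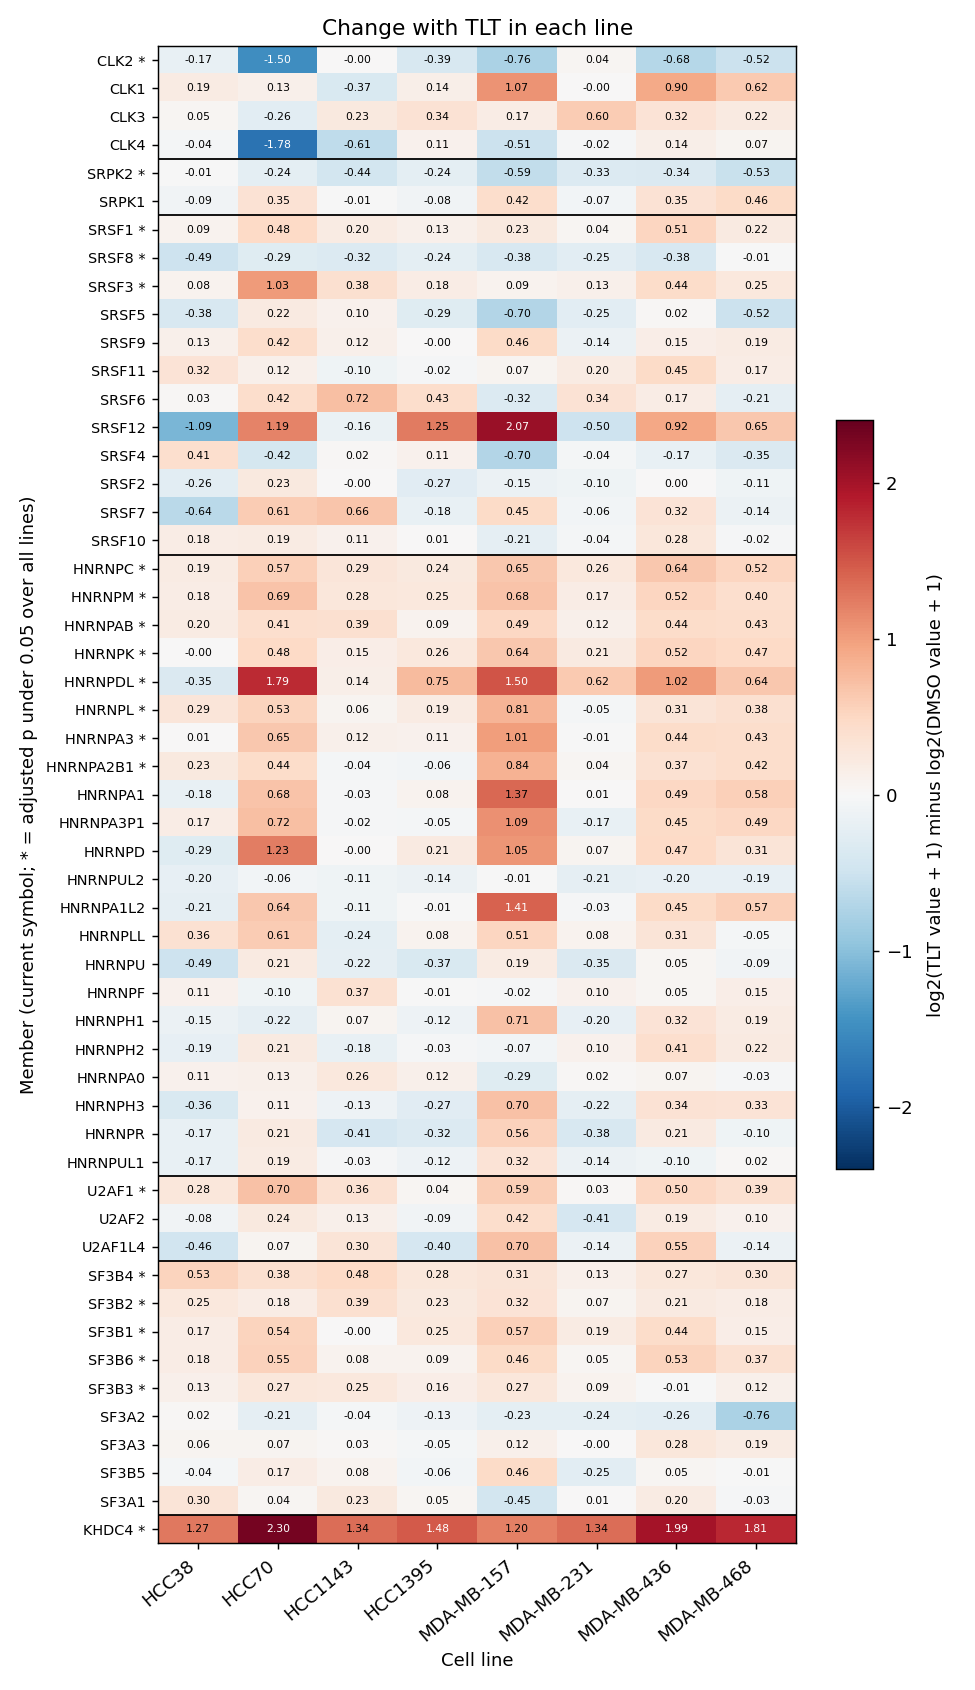
Change with TLT in each of the 8 lines (log2(TLT value + 1) minus log2(DMSO value + 1)) for the 53 members, in groups parted by black lines from top to bottom: CLK, SRPK, SR proteins, hnRNPs, U2AF, SF3A and SF3B, KHDC4 (KIAA0907); red is higher with TLT, blue lower, and an asterisk marks adjusted p under 0.05. KHDC4 is red throughout (1.20 to 2.30), and the hnRNP rows are reddest in HCC70 and MDA-MB-157.

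Of the U2AF genes, U2AF1, which contacts the last bases of the intron, rose, and the others were not called. U2AF1 had 1218, 1971 and 3134 with TLT, and 863, 1521 and 2399 with DMSO, higher in all 8 lines by 0.03 to 0.70 (0.36 ± 0.08, SE, adjusted p = 0.0082). U2AF2, its partner that binds the pyrimidine tract, had 3428, 5153 and 7770 with TLT, and 4049, 4834 and 6545 with DMSO (0.06 ± 0.08, adjusted p = 0.59). U2AF1L4, a relative of U2AF1, had 41.1, 88.0 and 254 with TLT, and 34.9, 83.9 and 281 with DMSO (0.06 ± 0.16, adjusted p = 0.81).

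In the U2 particle, 5 of 6 SF3B genes rose (median 0.26) and 0 of 3 SF3A genes did (median 0.04). Of all genes with a mean of 1000 to 10000, 28.3% rose, with a median of 0.135. SF3A2 has a mean of 100 to 1000, where 7.4% of all genes rose, with a median of -0.051. With so few genes, nothing particular to either complex is read from these counts. SF3B4 had 1629, 2309 and 3735 with TLT, and 1340, 1725 and 3092 with DMSO. It was higher in all 8 lines by 0.13 to 0.53 (0.33 ± 0.06, SE, adjusted p = 0.00282). SF3B2 had 4802, 6703 and 11175 with TLT, and 4246, 5784 and 9523 with DMSO, again higher in every line (0.23 ± 0.05, adjusted p = 0.00894). SF3B1, the large subunit that clamps the branch site and is often mutated in blood cancers, had 5338, 7194 and 10463 with TLT, and 4504, 6415 and 7708 with DMSO (0.29 ± 0.07, adjusted p = 0.0115). It was higher in 7 lines and at -0.00 in HCC1143. SF3B6 (SF3B14), which touches the branch site adenosine, averaged 1888 ± 726 with TLT and 1542 ± 556 with DMSO (SD, n = 8 each). It was higher in all 8 lines (0.29 ± 0.08, adjusted p = 0.0169), and was not called without MDA-MB-436 (adjusted p = 0.0552). SF3B3 was near the threshold (0.16 ± 0.06, adjusted p = 0.0482) and was not called whichever line was left out (adjusted p = 0.0517 to 0.113). SF3A2 had 484, 683 and 1585 with TLT, and 560, 921 and 1558 with DMSO. It was not called (-0.23 ± 0.09, adjusted p = 0.0716), with 7 of 8 lines below 0. The difference between SF3B and SF3A genes was not tested.

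The lines differed in how far the members moved. The median change of the 53 members was 0.42 in MDA-MB-157, 0.32 in MDA-MB-436, 0.24 in HCC70 and 0.19 in MDA-MB-468, and between -0.00 and 0.07 in HCC38, HCC1143, HCC1395 and MDA-MB-231. The hnRNP median was 0.67 in MDA-MB-157, with 18 of 22 genes above 0, and 0.46 in HCC70, with 19 of 22 above 0. It was -0.08 in HCC38, with 10 of 22 above 0. Abundant genes in general had their highest medians in the same lines. In MDA-MB-157 genes with a mean of 10000 and over had a median of 0.58, and in HCC70 of 0.43, while in HCC38 it was 0.09 and in MDA-MB-231 0.04. The median of the SR protein genes was -0.04 in MDA-MB-157 and 0.33 in HCC70. Without MDA-MB-157 and HCC70, 15 members rose and 4 fell, with a median of 0.125.

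**Figure D4:**
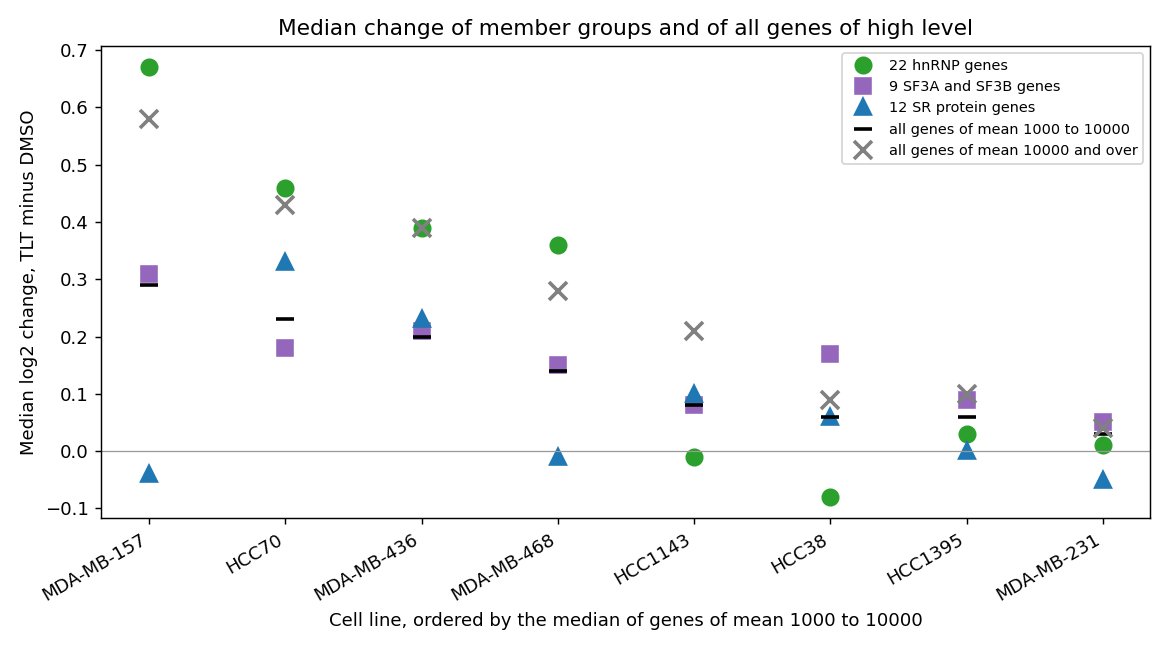
Median log2 change, TLT minus DMSO, in each line for the hnRNP, SF3A and SF3B, and SR protein genes (coloured) and for all genes with a mean of 1000 to 10000 (black) and of 10000 and over (grey crosses); lines are ordered by the black bars. The hnRNP median is 0.67 in MDA-MB-157 and 0.01 in MDA-MB-231, beside 0.58 and 0.04 for all genes of mean 10000 and over.

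Whether the change differed between the HCC and the MDA-MB lines was fitted as an interaction in limma. Of all genes 0 passed the threshold (0.0%), and 410 had an unadjusted p under 0.05 (2.82%). Of the members, 3 had an unadjusted p under 0.05. The CLK1 change averaged 0.02 in HCC lines and 0.65 in MDA-MB lines (difference -0.62 ± 0.23, SE, unadjusted p = 0.0199). HNRNPH3 averaged -0.16 in HCC lines and 0.29 in MDA-MB lines (-0.45 ± 0.18, unadjusted p = 0.0322), and SRSF6 averaged 0.40 in HCC lines and -0.00 in MDA-MB lines (0.40 ± 0.18, unadjusted p = 0.0455). All 3 had an adjusted p of 0.968. The KIAA0907 change averaged 1.60 in HCC lines and 1.59 in MDA-MB lines (0.01 ± 0.24).

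Of 172 genes in 8 further lists of the splicing machinery, 43 rose and 8 fell, against 15% and 10.9% of all genes, with a median of 0.10. At a mean of 1000 to 10000, where 119 of them lie, 29.4% rose and 5.04% fell, near the 28.3% and 5.25% of all genes of that level. Spliceosomal helicases had 6 of 12 higher and 2 lower (median 0.21), with DHX9 at 0.56 (adjusted p = 0.000338), DHX15, which takes spliceosomes apart, at 0.53 (adjusted p = 0.000246) and DDX39, an mRNA export helicase, at 0.53 (adjusted p = 0.000801). The largest changes in this list, picked after their values were seen, were DDX5 at 0.70 (adjusted p = 0.00108) and DDX42 at -0.56 (adjusted p = 0.00131). Proteins of U1, of the Sm ring and others of U2 had 6 of 20 higher and 0 lower (median 0.19). They include DDX46 (0.41), the branch point protein SF1 (0.40) and SNRPB (0.36). Among 41 other RNA-binding regulators 11 rose and 1 fell (median 0.14). SFPQ, a paraspeckle protein, had the largest rise there (0.63 ± 0.07, adjusted p = 0.000167), with MBNL1 at 0.38 and RBM9 (current symbol RBFOX2) at 0.33, and RBM5 was the gene that fell (-0.63). Among 39 tri-snRNP and Prp19 genes 10 rose and 2 fell (median 0.09), including USP39 (0.38), LSM7 (0.37) and XAB2 (0.33).

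Of all genes 15% rose and 10.9% fell, and nothing particular to the lists below is read from their counts. Of 23 SR-related genes 5 rose and 1 fell (median 0.01). SFRS15 (0.37), SON (0.29), a scaffold of nuclear speckles, and ACIN1 (0.21) were among those that rose, and RBM16, lower in 8 of 8 lines, had the largest change (-0.72, adjusted p = 0.0114). Among 14 genes listed as other kinases of splicing factors, which include the topoisomerase gene TOP1, 3 rose and 1 fell (median -0.13). CDK12, which phosphorylates RNA polymerase II, fell in all 8 lines, averaging 1613 with TLT and 2426 with DMSO (-0.74 ± 0.18, SE, adjusted p = 0.0105), while HIPK3 (0.33) and TOP1 (0.28) rose. Among 15 exon junction and nonsense-mediated decay genes 2 rose and 1 fell (median 0.07). The exon junction helicase EIF4A3 was among those that rose (0.28), and C19orf61 (current symbol SMG9) was the gene that fell (-0.33). Of 8 minor spliceosome genes 0 were called by limma. An unadjusted p under 0.05 was seen in 3 of them, RNPC3 (0.39), SNRNP35 (-0.55) and PDCD7 (-0.41). It was also seen in 5744 of all 14544 genes, so these 3 are near the background.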

How the data were processed

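RNA was selected with oligo(dT), made into libraries that keep no strand and sequenced as single reads of 50 cycles. The authors aligned reads with MapSplice to hg19, estimated gene values with RSEM and deposited an upper quartile normalized signal; their test with DESeq2 (version 1.4.5 per the labels) used counts from another mapping, which were not used here. A deposited table of fold changes per line was not used. Of 20531 rows, 29 without a gene name (0.0398% of the signal) were left out.

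Members were matched by the symbol in the file or by its current symbol in RefSeq. Members and lists were chosen with earlier results of these data known. Genes of mean 10 or more were fitted as log2(value + 1) in limma 3.58.1 (R 4.3.3), with trend and robust moderation, the cell line as a block and Benjamini-Hochberg adjustment at 0.05, and the fit was tested on simulated data. Fold changes on this scale understate those of low genes. The pairing comes from the labels: each pair's deviations from the treatment means correlated at 0.900 to 0.954, against at most 0.296 with another line. Low values came in steps, from which depth was estimated; 83.1% to 84.9% of them were whole reads within 0.01, so no count test was run.

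Named members were all kinases, KIAA0907, all U2AF genes and, in each other group, up to 4 called members of smallest p and the uncalled member of largest change; up to 3 called genes were named per further list, of which 1 is not reported here. Other genes are named by their counts, copies or size of change, after their values were seen. Positions are from GENCODE on GRCh37. Tables were made in Python 3.11.15 with numpy 2.4.6 and pandas 2.3.3. Alternatives were no block, TMM scaling, limma without trend and robust moderation, other filters and pseudocounts, each line left out, each set of lines alone and, chosen after the data were seen, MDA-MB-157 and HCC70 both left out.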

Additional observations from a re-analysis of the deposited data

Results flagged for a closer look

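In 4 of the 53 members, 1 line lay far from the other 7 in its change with TLT, where chance gives about 1 in 20 and 8.28% of all genes (1204 of 14544) had such a line, so the members' count is near the background. CLK4 changed by -1.78 in HCC70 (39.0 with TLT, 137 with DMSO), and by -0.61 to 0.14 in the other lines. SRSF3 (SFRS3) changed by 1.03 in HCC70 (8481 with TLT, 4146 with DMSO), and by 0.08 to 0.44 elsewhere. SF3A2 changed by -0.76 in MDA-MB-468 (590 with TLT, 999 with DMSO), and by -0.26 to 0.02 elsewhere. SF3A1 changed by -0.45 in MDA-MB-157 (1832 with TLT, 2504 with DMSO), and by -0.03 to 0.30 elsewhere. HCC70 and MDA-MB-157 are also the lines in which the summed values stood highest above their vehicle, and the part of that in these changes was not tested.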

How the results depend on the processing

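With no block for the cell line, 7 of all genes were called (517 at an unadjusted p under 0.05), and 1 member was higher and 0 lower, with 4 members at an unadjusted p under 0.05. Without trend and robust moderation, 11 members were higher. CLK2, SRSF1, SRSF3, HNRNPL, HNRNPA3, HNRNPA2B1 and SF3B3 were then not called. In the MDA-MB lines alone 1377 genes were called, with 7 members higher and 1 lower, and in the HCC lines alone 170, with 1 member higher and 0 lower; both use 4 lines of 8. Leaving out each line in turn gave 2421 (without MDA-MB-436) to 3898 called genes, 11 to 17 members higher, 1 to 3 lower, and 0 to 1 genes that differed between the HCC and MDA-MB lines. That gene was RGPD8, of a multigene family, also the 1 gene called with no filter on low values. The change of U2AF1L4, never called, ran from -0.031 to 0.135 with a line left out (-0.009 without MDA-MB-436), and was -0.121 in the HCC lines alone and -0.048 without MDA-MB-157 and HCC70, where U2AF2 was at -0.025. The cause of these shifts was not tested. Of 827 values of 46 named genes under an alternative, 105 lost their call, 36 of them with no block and 55 with 1 set of lines alone, and 5 gained one; members outside the naming rule are not in this tally. KIAA0907 was called under every alternative named here.

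The estimated depths limit low members such as SRSF12, whose values of 1.49 to 238 rest on few reads in several lines. Each line has 1 library per treatment, so variation within a line was not measured.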
